A study of Mus musculus with 24 samples.

Results

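The comparison set 12 pancreatic tumour libraries from mice given IGEL or LIGEL (6 each) against 12 libraries from mice given GEM or PBS (6 each), so the IGEL and LIGEL pool held 12 of the 24 libraries of the series. Libraries were assigned by the treatment named in their labels, and no expression value was used. Every tumour was collected on day 24. PBS is buffered saline and was the control group in the submitters' design, while the other 3 treatment names are not spelled out in the labels. The series title speaks of losartan given first, a nanocarrier, and chemotherapy joined with immunotherapy, but no label ties one of these to a group, and no agent or dose is assigned here. Strain, sex, age, tumour model and number of tumour pieces per animal are not in the labels. Nothing in the labels says that each of the 6 libraries of a group is a separate animal. The p-values therefore describe the spread among the libraries at hand, and that spread may be technical.

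Whole-tumour RNA mixes tumour cells with immune, stromal and normal pancreatic cells, and in such RNA fewer cells of a type and less RNA per cell cannot be told apart. Dividing cells switch on a block of genes for the mitotic spindle, the centromere and the final cut between daughter cells, and many of their promoters carry a CCAAT box and a cell cycle element known as the CHR. Cytotoxic T cells kill with granzymes, recognise peptides held on MHC class I and carry inhibitory receptors such as CTLA-4 and TIGIT. Ductal pancreatic cancers arise in a gland whose acinar cells make digestive enzymes in very large amounts, so a piece of attached pancreas changes the makeup of a library.

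Total gene counts were between 30680684 and 40521434 in IGEL and LIGEL libraries and between 27066563 and 35832645 in GEM and PBS libraries. The sample titles name muscle where the tissue label names pancreatic tumour, and no library had more than 0.0295% of its counts in skeletal muscle genes. A list of 26 acinar genes took 0.00689% to 11.3% of the counts in the IGEL and LIGEL libraries (median 0.917%), against 0.00697% to 46.8% in the GEM and PBS libraries (median 2.03%). The highest value belonged to PBS replicate 5, whose scaling factor for composition was 0.495 where every other library had 0.847 to 1.09. Xist, the RNA of the inactive X chromosome, had 3 counts in IGEL replicate 3 and 4391 to 44895 in the other 23 libraries, and 4 Y-linked genes (Ddx3y, Eif2s3y, Kdm5d and Uty) had 0 counts in 23 libraries, that one included, and 17 in IGEL replicate 4. IGEL replicate 3 was kept in its labelled group, and values without it are given below. The names of the count columns of 6 libraries begin with A1, A2 or A3. These were 1 IGEL, 2 LIGEL and 3 GEM libraries and no PBS library, and the labels do not say what the column names stand for. Both A2 columns were GEM, both A3 columns were LIGEL, and the A1 columns were IGEL and GEM. Whether columns that share a prefix come from one source is not given, so these libraries may not be independent. Levels are given as CPM, counts divided by the library's total after scaling for composition (TMM) and put on one common scale. Counts were compared in 4 ways, over all 24 libraries or without PBS replicate 5, and with or without a term for these 6 libraries. Because no PBS library had such a column, a difference between the GEM and PBS groups and this term are partly confounded.

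No gene passed the test over all 24 libraries. Of 17720 genes tested with edgeR's quasi-likelihood test, 0 had a Benjamini-Hochberg adjusted p under 0.05 (0% called), and the smallest adjusted p was 0.123, for Trim26. At an unadjusted p under 0.05, 734 genes were higher in IGEL and LIGEL (4.14% of genes tested) and 2501 were lower (14.1%). DESeq2 called 470 genes on the same libraries, 102 higher and 368 lower, and limma with voom weights called 0. Leaving out PBS replicate 5 gave 0 calls of 17842 genes and 2762 at an unadjusted p under 0.05, with a smallest adjusted p of 0.0590. Adding only the column term gave 0 calls and 3664 at an unadjusted p under 0.05, with a smallest adjusted p of 0.0616.

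Calls appeared with both steps together. Over the 23 libraries without PBS replicate 5 and with the column term, 374 genes were called, of which 63 were higher in IGEL and LIGEL (0.353% of genes tested) and 311 were lower (1.74%). Leaving out each of the 23 libraries in turn moved this count to between 170 and 838. It was lower by over a factor of 1.5 without GEM replicates 2, 3 or 4 (170, 195 and 187), PBS replicate 2 (186), IGEL replicates 2, 3 or 6 (217, 235 and 191) or LIGEL replicates 1, 2 or 3 (214, 194 and 202), and was 588 without GEM replicate 1, 838 without GEM replicate 5 and 605 without IGEL replicate 4. With the 6 libraries of the A1 to A3 columns removed instead of modelled, 79 genes were called, 7 higher and 72 lower, and 78 of these were among the 374. Outside the division genes, Mcm10, Fancd2, Batf2, Trim26, Prdm1 and Nsmce4a were still called with these 6 libraries removed (adjusted p 0.0386 to 0.0498), and every other called gene named below was not. Without IGEL replicate 3, the library low in Xist, the division list below had 33 calls, MHC class I presentation 5, the p53 list 0 and the cytotoxic list 0. No called gene separated the pools completely: of 17842 genes, 0 had every IGEL and LIGEL library below, or above, all 11 remaining GEM and PBS libraries. Tested against a fold of 1.2 in place of no change, 0 genes were called. All later calls are from the 23-library fit with the column term unless all 24 libraries are named. The calls of each list below stand against the shares over all genes tested, 1.74% lower and 0.353% higher. Counts at an unadjusted p under 0.05 over all 24 libraries stand against 14.1% lower and 4.14% higher. Counts of members above or below 0 stand against 52.9% of genes tested below 0 in the 23-library fit.

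The pooled contrast joins GEM with PBS, and the 4 groups were also compared singly. In a model with a mean for each of the 4 groups over the same 23 libraries with the term, IGEL against PBS called 128 genes and LIGEL against PBS called 131. IGEL against GEM called 0 genes, with 1044 at an unadjusted p under 0.05, and LIGEL against GEM called 0, with 1611. LIGEL against IGEL called 0, with 397 at an unadjusted p under 0.05, and GEM against PBS called 0, with 564. The counts against PBS depended on the fit. Over all 24 libraries without the term, IGEL against PBS and LIGEL against PBS called 0 genes each (smallest adjusted p 0.247 and 0.0659). Without PBS replicate 5 and without the term they called 26 and 179. The IGEL and LIGEL means were both below the GEM and PBS means for 311 of the 311 genes called lower (30.5% of genes tested) and both above them for 63 of the 63 called higher (22.5% of genes tested). Since the same contrast chose these genes, this is a description. Without adjustment for the column term, the mean of GEM was below that of PBS for 305 of the 311 and 10 of the 63. It was below for 9476 of all 17842 genes tested. These contrasts share the PBS and GEM libraries, so their calls are not separate observations, and no gene is shown here to differ between IGEL or LIGEL and GEM alone.

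Genes of the mitotic spindle and cell division were the group with the most calls. All 34 members of the list were tested, and 34 of 34 fell in the IGEL and LIGEL pool, with a median log2 fold change of -0.63 where the median over all genes tested was -0.01. Over all 24 libraries none of the 34 was called, 27 were lower at an unadjusted p under 0.05, and the median was -0.54. The promoters of 3 called members are shown because they carry both a CCAAT box and a CHR element. They run from 120 bases before the start of transcription to 30 bases after it, are written in the direction of the gene, and come from RefSeq on GRCm38.p6. Capitals mark CCAAT boxes (CCAAT, or ATTGG on the other strand) and CHR elements (TTTGAA, or TTCAAA on the other strand). The Spag5 sequence is chr11:78301471-78301620 on the plus strand, the Espl1 sequence chr15:102296173-102296322 on the plus strand and the Top2a sequence chr11:99024160-99024309 on the minus strand.
Spag5: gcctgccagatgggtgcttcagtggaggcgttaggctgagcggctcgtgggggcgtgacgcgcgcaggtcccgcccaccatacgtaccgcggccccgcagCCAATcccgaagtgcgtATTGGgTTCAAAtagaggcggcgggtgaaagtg
Espl1: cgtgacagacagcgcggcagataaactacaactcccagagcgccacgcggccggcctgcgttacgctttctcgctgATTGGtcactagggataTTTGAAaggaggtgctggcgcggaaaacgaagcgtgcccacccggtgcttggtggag
Top2a: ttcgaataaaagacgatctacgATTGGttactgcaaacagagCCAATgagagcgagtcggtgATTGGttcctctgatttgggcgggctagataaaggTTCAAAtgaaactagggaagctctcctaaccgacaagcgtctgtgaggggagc
In a 300-base window, 250 bases before the start to 50 after it, 25 of 31 promoters of 29 matched division genes held a CHR element (80.6%), against 12.8% of the 15290 promoters of all genes tested. A CCAAT box was in 25 of the 31 (80.6%), against 37.2% of all, and both were in 21 of the 31 (67.7%), against 5.10% of all. Another motif searched, the interferon gamma element GAS (TTCNNNGAA), was in 0 of the 31, against 6.94% of all. A match is a run of letters, and binding of a factor was not measured.

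Spag5, which encodes a protein that keeps the spindle and kinetochores together (chr11:78301529-78322457 in the file's mm10 coordinates), had 36.4, 57.7 and 67.9 CPM (lowest, median and highest) in the 12 IGEL and LIGEL libraries. In the 11 GEM and PBS libraries the same values were 46.9, 85.5 and 144 CPM, and PBS replicate 5 had 19.8 CPM. All 12 IGEL and LIGEL libraries lay below the median of the 11, 4 lay below all of them, and 7 of the 11 lay above every IGEL and LIGEL library. Its log2 fold change was -0.74 ± 0.10 (SE, adjusted p = 0.00453), against -0.66 ± 0.21 over all 24 libraries (adjusted p = 0.157). By group, Spag5 averaged 52.9 ± 10.1 CPM in IGEL, 54.0 ± 12.7 CPM in LIGEL, 73.6 ± 24.7 CPM in GEM (SD, n = 6 each) and 110 ± 24.4 CPM in PBS without replicate 5 (SD, n = 5). The GEM mean stood between that of PBS and those of IGEL and LIGEL, which were nearly the same. These means are not adjusted for the column term, and GEM holds A1 to A3 columns where PBS holds none.

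Cyclins and mitotic kinases moved together. Ccna2, the cyclin of S phase and mitotic entry, had 40.2, 70.1 and 86.4 CPM (lowest, median, highest) in IGEL and LIGEL and 55.9, 96.4 and 173 CPM in GEM and PBS. Ccnb2, a mitotic cyclin, had the largest change of the list, with 23.3, 35.3 and 51.8 CPM in IGEL and LIGEL and 37.9, 53.5 and 118 CPM in GEM and PBS. For both, every IGEL and LIGEL library was below the median of the 11 others while the ranges overlapped. The log2 fold changes were -0.66 ± 0.10 for Ccna2 and -0.83 ± 0.16 for Ccnb2. Their partner kinase Cdk1 fell by 0.52 ± 0.09 on the log2 scale, Plk1, a kinase of spindle assembly, by 0.72 ± 0.13, and the spindle kinases Aurka and Aurkb by 0.66 ± 0.13 and 0.60 ± 0.10. Adjusted p-values of these 6 genes were between 0.00453 and 0.00818. With the A1 to A3 libraries removed, Ccnb2 was not called (adjusted p = 0.0545), while the other 5 were.

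Chromosome and spindle proteins followed. Top2a, the topoisomerase that untangles replicated chromosomes, had 264, 421 and 548 CPM in IGEL and LIGEL and 304, 605 and 947 CPM in GEM and PBS. Mki67, the proliferation antigen Ki-67, had 176, 289 and 387 CPM in IGEL and LIGEL and 207, 375 and 698 CPM in GEM and PBS. In PBS replicate 5 they were at 74.8 and 57.2 CPM, below every other library. Top2a fell by 0.57 ± 0.09 and Mki67 by 0.59 ± 0.10 on the log2 scale (adjusted p = 0.00453 for each). Cenpa, the centromeric histone, and Cenpe, a kinetochore motor, fell by 0.65 ± 0.11 and 0.71 ± 0.13. The kinesins Kif18b and Kif20a, which act at microtubule ends and in cytokinesis, fell by 0.70 ± 0.12 and 0.75 ± 0.14. Espl1, the separase that parts sister chromatids, fell by 0.69 ± 0.11, and Cdc20, an activator of the ubiquitin ligase that starts anaphase, by 0.75 ± 0.16. The smallest change was that of Foxm1, a transcription factor of the mitotic programme, at -0.48 ± 0.10 (adjusted p = 0.0145). Cenpe, Cdc20 and Foxm1 were not called with the A1 to A3 libraries removed.

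**Figure D1:**
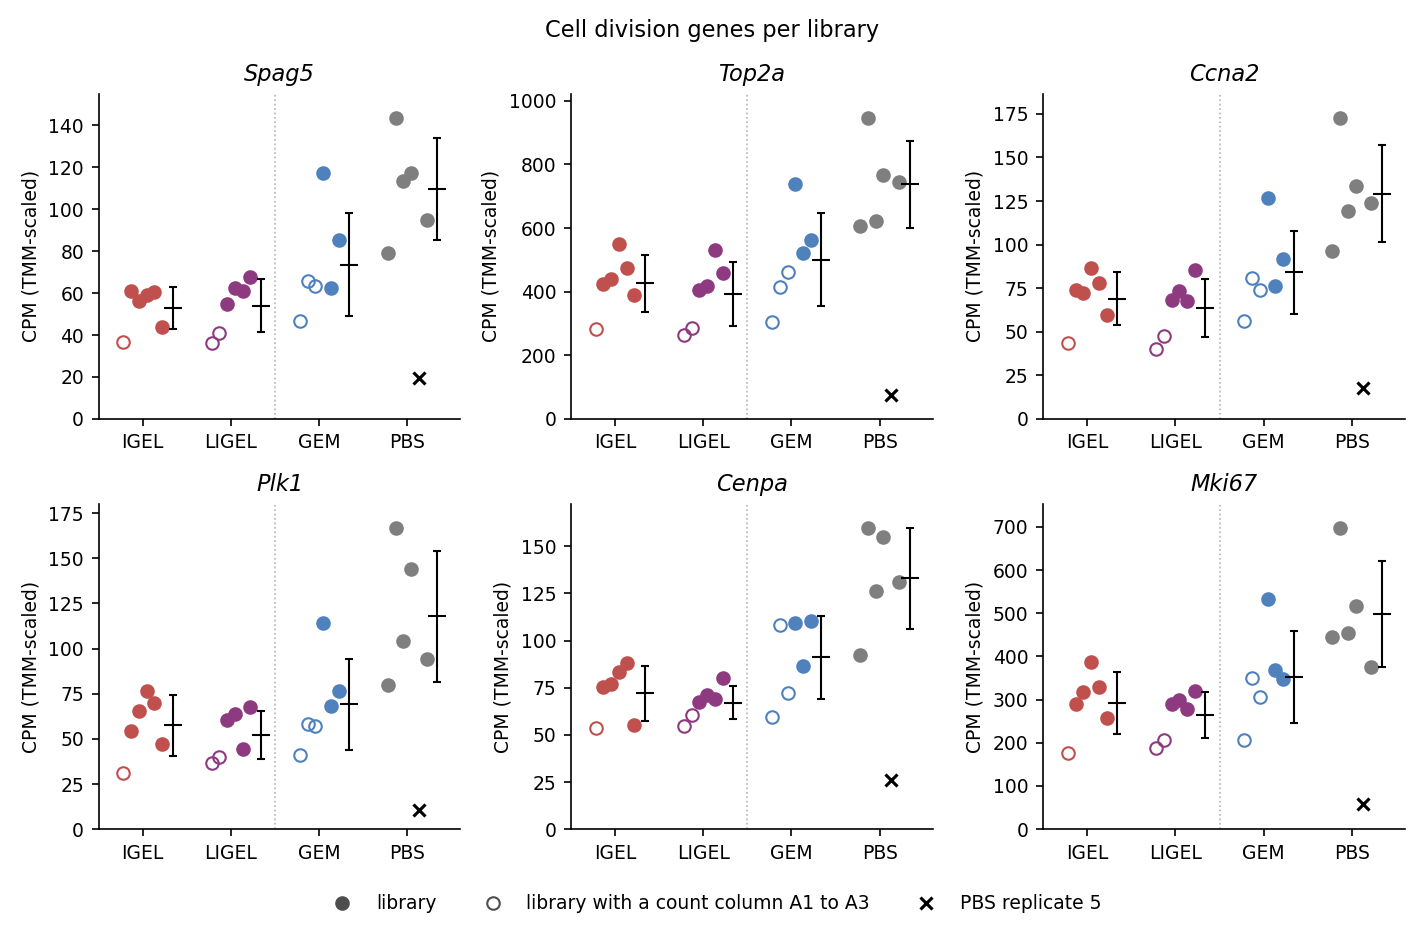
CPM (y axis, linear, TMM-scaled) of 6 division genes in each library, by group on the x axis, with the mean and SD beside each group and PBS replicate 5 left out of the mean and SD. IGEL and LIGEL libraries lie low and close together, GEM and PBS libraries reach higher, and PBS replicate 5 is the lowest of the 24 for each of the 6 genes.

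The mean log2 CPM over the 34 division genes was 6.03 ± 0.31 in IGEL, 5.88 ± 0.31 in LIGEL, 6.25 ± 0.39 in GEM (SD, n = 6 each) and 6.91 ± 0.35 in PBS without replicate 5 (SD, n = 5). PBS replicate 5 was at 3.85. Among libraries with an A1 to A3 column, the mean was 5.50 for the 3 from IGEL and LIGEL and 5.99 for the 3 from GEM. Among the rest it was 6.11 for the 9 from IGEL and LIGEL and 6.77 for the 8 from GEM and PBS without replicate 5. The lower level of IGEL and LIGEL was present in both sets of columns. With the A1 to A3 libraries removed, 23 of the 34 were called and the median log2 fold change was -0.66, and within them, 3 IGEL and LIGEL libraries against 3 GEM libraries, 0 were called with a median of -0.48. A test of the difference between the 2 sets called 0 of 17842 genes, with 848 at an unadjusted p under 0.05, and 0 of the 34 division genes had an unadjusted p under 0.05. With the acinar level of each library as a covariate, 34 of the 34 were called, and leaving out 1 more library left 33 or 34.

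**Figure D2:**
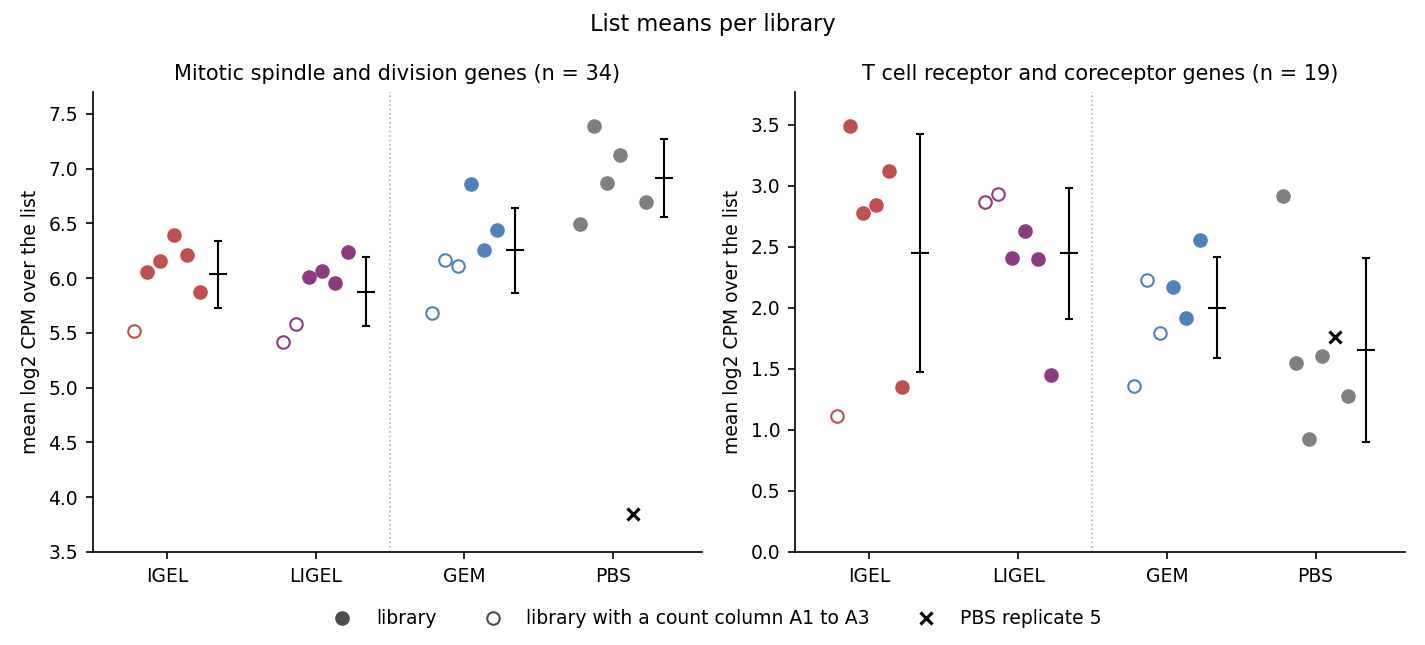
Mean log2 CPM (y axis) over the 34 division genes, on an axis that starts at 3.5, and over the 19 T cell genes, on an axis from 0, one point per library by group, with the group mean and SD without PBS replicate 5. Division genes averaged 6.03 and 5.88 in IGEL and LIGEL, against 6.25 in GEM and 6.91 in PBS, and T cell genes 2.45 and 2.45 in IGEL and LIGEL, against 2.004 in GEM and 1.66 in PBS.

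DNA replication genes had fewer calls. Of 31 tested, 8 were called lower and 0 higher, and the median log2 fold change was -0.32. Rrm1, the large subunit of ribonucleotide reductase, had 94.9, 135 and 162 CPM in IGEL and LIGEL and 102, 174 and 268 CPM in GEM and PBS, a log2 fold change of -0.47 ± 0.09 (adjusted p = 0.00613). Mcm10, which helps start replication forks, fell by 0.61 ± 0.13 (adjusted p = 0.0123). The DNA polymerase alpha subunit Pola1 and the ligase Lig1 fell by 0.26 ± 0.06 and 0.32 ± 0.08, and were called in 16 and 5 of the 23 fits with 1 library left out. With 1 more library left out, between 2 and 18 members were called. The lowest count came without GEM replicate 2, 3 or 4, PBS replicate 2, IGEL replicate 6, or LIGEL replicate 2 or 6. The highest came without PBS replicate 1, and 1 member was called with the A1 to A3 libraries removed. Over all 24 libraries only 1 of the 31 was lower at an unadjusted p under 0.05, where 14.1% of all genes tested were. Rrm1 and the thymidylate synthase gene Tyms (-0.42 ± 0.11, adjusted p = 0.0368) were the 2 called of the 15 tested genes for uptake, activation and targets of gemcitabine, whose median was -0.04. Tyms was called in 9 of the 23 left-out fits, and with the A1 to A3 libraries removed neither gene was called (adjusted p = 0.0520 for Rrm1 and 0.144 for Tyms).

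DNA repair and checkpoint genes gave 9 lower calls of 20 tested, with 0 higher and a median of -0.35. Chek2, a checkpoint kinase, had 6.48, 9.43 and 11.8 CPM in IGEL and LIGEL and 9.10, 12.4 and 17.8 CPM in GEM and PBS, and its log2 fold change was -0.55 ± 0.10 (adjusted p = 0.00575). Fancd2, which acts at DNA crosslinks, fell by 0.64 ± 0.12 (adjusted p = 0.00548) and Brca1, a gene of recombination repair, by 0.48 ± 0.10 (adjusted p = 0.0180). These 3 were called in each of the 23 fits that left out 1 more library, while the list had between 5 and 12 calls in them. With the A1 to A3 libraries removed the list had 1 call, Fancd2, and adjusted p was 0.0582 for Chek2 and 0.0668 for Brca1.

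Targets of p53, the stress-activated tumour suppressor, had 6 of 24 members called, all lower, and a median of -0.38. Over all 24 libraries 16 of the 24 were lower at an unadjusted p under 0.05, with a median of -0.41. Bax, a mediator of cell death, had 29.8, 35.0 and 42.9 CPM in IGEL and LIGEL and 33.9, 47.5 and 57.3 CPM in GEM and PBS. All 12 IGEL and LIGEL libraries were below the median of the 11 others. Bax fell by 0.34 ± 0.08 (adjusted p = 0.0312), Eda2r, a receptor of the tumour necrosis factor family, by 0.79 ± 0.20 (adjusted p = 0.0362), and the nuclease gene Aen by 0.38 ± 0.09 (adjusted p = 0.0359). Trp53inp1, a p53 cofactor, had 17.6, 29.4 and 52.6 CPM in IGEL and LIGEL and 19.9, 59.7 and 392 CPM in GEM and PBS, and its log2 fold change was -1.49 ± 0.38 (adjusted p = 0.0446). The cell cycle inhibitor Cdkn1a, the best known p53 target, was not called, at -0.26 ± 0.17 (adjusted p = 0.405). Without GEM replicate 2 or 4, PBS replicate 2, or IGEL replicate 2, 3 or 6 the list had 0 calls, without GEM replicate 5 it had 10, adding the acinar covariate left 2, and removing the A1 to A3 libraries left 0.

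Several immune genes were among the 63 called higher. Ctla4, the inhibitory receptor of activated T cells, had 0.519, 1.87 and 6.06 CPM in IGEL and LIGEL and 0.298, 0.822 and 1.28 CPM in GEM and PBS. Of the 12 IGEL and LIGEL libraries 8 lay above all 11 others, and 1 lay below their median. Its log2 fold change was 1.55 ± 0.28 (adjusted p = 0.00575), against 1.69 ± 0.34 over all 24 libraries (adjusted p = 0.148). It was called in 23 of 23 fits with 1 library left out, but not with the A1 to A3 libraries removed (1.31, adjusted p = 0.120), and within those 6 libraries it was 2.22. Levels averaged 2.67 ± 1.34 CPM in IGEL, 2.43 ± 2.23 CPM in LIGEL, 0.946 ± 0.278 CPM in GEM (SD, n = 6 each) and 0.644 ± 0.287 CPM in PBS without replicate 5 (SD, n = 5). The 2 LIGEL libraries with A1 to A3 columns were the highest of their group, as the plot of immune genes shows.

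Gzmb, the granzyme that cytotoxic lymphocytes inject into targets, had 6.02, 19.7 and 26.8 CPM in IGEL and LIGEL and 2.13, 6.42 and 16.6 CPM in GEM and PBS. In IGEL it averaged 21.7 ± 4.36 CPM, in LIGEL 15.3 ± 7.23 CPM, in GEM 7.55 ± 4.50 CPM (SD, n = 6 each) and in PBS without replicate 5 8.52 ± 5.26 CPM (SD, n = 5). The log2 fold change was 1.23 ± 0.30 (adjusted p = 0.0340), and the call held in 11 of the 23 fits with 1 library left out, where adjusted p ran from 0.00902 to 0.0738. Gzmb was the 1 called gene of 15 cytotoxic effector genes, all 15 of which had a fold change above 0. Tigit, a second inhibitory receptor, rose by 0.51 ± 0.13 (adjusted p = 0.0459) and was called in 8 of the 23. With Ctla4 it made up the 2 calls among 13 checkpoint genes. Of the 13, 11 had a fold change above 0 and 2 below, with a median of 0.51 and a lowest of -1.12. With the A1 to A3 libraries removed neither list had a call, and adjusted p was 0.292 for Gzmb and 0.242 for Tigit. Cd274, which encodes PD-L1, had 22.9, 31.1 and 46.2 CPM in IGEL and LIGEL and 14.8, 23.8 and 31.3 CPM in GEM and PBS and was not called (0.45 ± 0.13, adjusted p = 0.0656).

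T cell receptor and coreceptor genes all pointed the same way without a call. All 19 had a fold change above 0. Over all 24 libraries 12 of them were higher at an unadjusted p under 0.05, against 4.14% of all genes tested, and the median was 0.62. In the 23-library fit the median of the 19 was 0.56, and adjusted p ran from 0.0816 to 0.419. Their mean log2 CPM was 2.45 ± 0.98 in IGEL and 2.45 ± 0.54 in LIGEL, against 2.004 ± 0.41 in GEM (SD, n = 6 each) and 1.66 ± 0.75 in PBS without replicate 5 (SD, n = 5). The spread within groups was about as wide as the differences. Cd8a, the coreceptor of cytotoxic T cells, had 7.87, 17.5 and 49.0 CPM in IGEL and LIGEL and 6.02, 11.2 and 35.7 CPM in GEM and PBS (0.55 ± 0.30, adjusted p = 0.332). Foxp3, which defines regulatory T cells, had 0.517, 1.16 and 2.41 CPM in IGEL and LIGEL and 0.271, 1.04 and 1.42 CPM in GEM and PBS (0.33 ± 0.30, adjusted p = 0.577). Il2ra, the high-affinity interleukin-2 receptor chain of activated and regulatory T cells, stood at 0.97 ± 0.28 (adjusted p = 0.0682).

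Genes for antigen presentation on MHC class I were among the genes called higher. Of 16 tested 4 were called higher, 16 had a fold change above 0, and the median was 0.32. H2-K1, a classical class I heavy chain, had 2165, 2512 and 3284 CPM in IGEL and LIGEL and 1195, 2088 and 2543 CPM in GEM and PBS. Every IGEL and LIGEL library was above the median of the 11 others, and 6 were above all of them. H2-K1 rose by 0.38 ± 0.09 (adjusted p = 0.0354) and H2-D1, the other heavy chain, by 0.38 ± 0.10 (adjusted p = 0.0424). Class I genes are near copies of each other, and how the counting split shared reads is not given in the sources used here, so the values of H2-K1 and H2-D1 are uncertain. Nlrc5, the transactivator of class I genes, has no such copy and had 158, 212 and 291 CPM in IGEL and LIGEL and 127, 171 and 214 CPM in GEM and PBS. It rose by 0.39 ± 0.09 (adjusted p = 0.0213) and was called in 23 of 23 fits with 1 library left out, but not with the A1 to A3 libraries removed (0.36, adjusted p = 0.144). Tap2, a subunit of the peptide transporter, rose by 0.26 ± 0.07 (adjusted p = 0.0397), and B2m, the light chain, stood at 0.34 ± 0.09 (adjusted p = 0.0582). The list had 1 call without GEM replicate 2 or 3, IGEL replicate 2, or LIGEL replicate 1, 2 or 3, 8 calls without GEM replicate 5, and 0 with the A1 to A3 libraries removed.

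Trim26, a ubiquitin ligase gene within the MHC region (chr17:36837134-36859398), had the smallest p of all genes over all 24 libraries. It had 108, 133 and 141 CPM in IGEL and LIGEL and 91.3, 102 and 118 CPM in GEM and PBS, and 83.1 CPM in PBS replicate 5. All 12 IGEL and LIGEL libraries were above the median of the 11 others, and 9 were above all of them. Its log2 fold change was 0.33 ± 0.06 over all 24 libraries (adjusted p = 0.123) and 0.32 ± 0.05 in the 23-library fit (adjusted p = 0.00453). It averaged 125 ± 13.3 CPM in IGEL, 135 ± 5.31 CPM in LIGEL, 109 ± 7.41 CPM in GEM (SD, n = 6 each) and 100 ± 6.67 CPM in PBS without replicate 5 (SD, n = 5). H2-M3, a class I gene that presents formylated peptides, rose by 0.47 ± 0.11 (adjusted p = 0.0202), but was not called with the A1 to A3 libraries removed (adjusted p = 0.123), where Trim26 was (adjusted p = 0.0455).

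**Figure D3:**
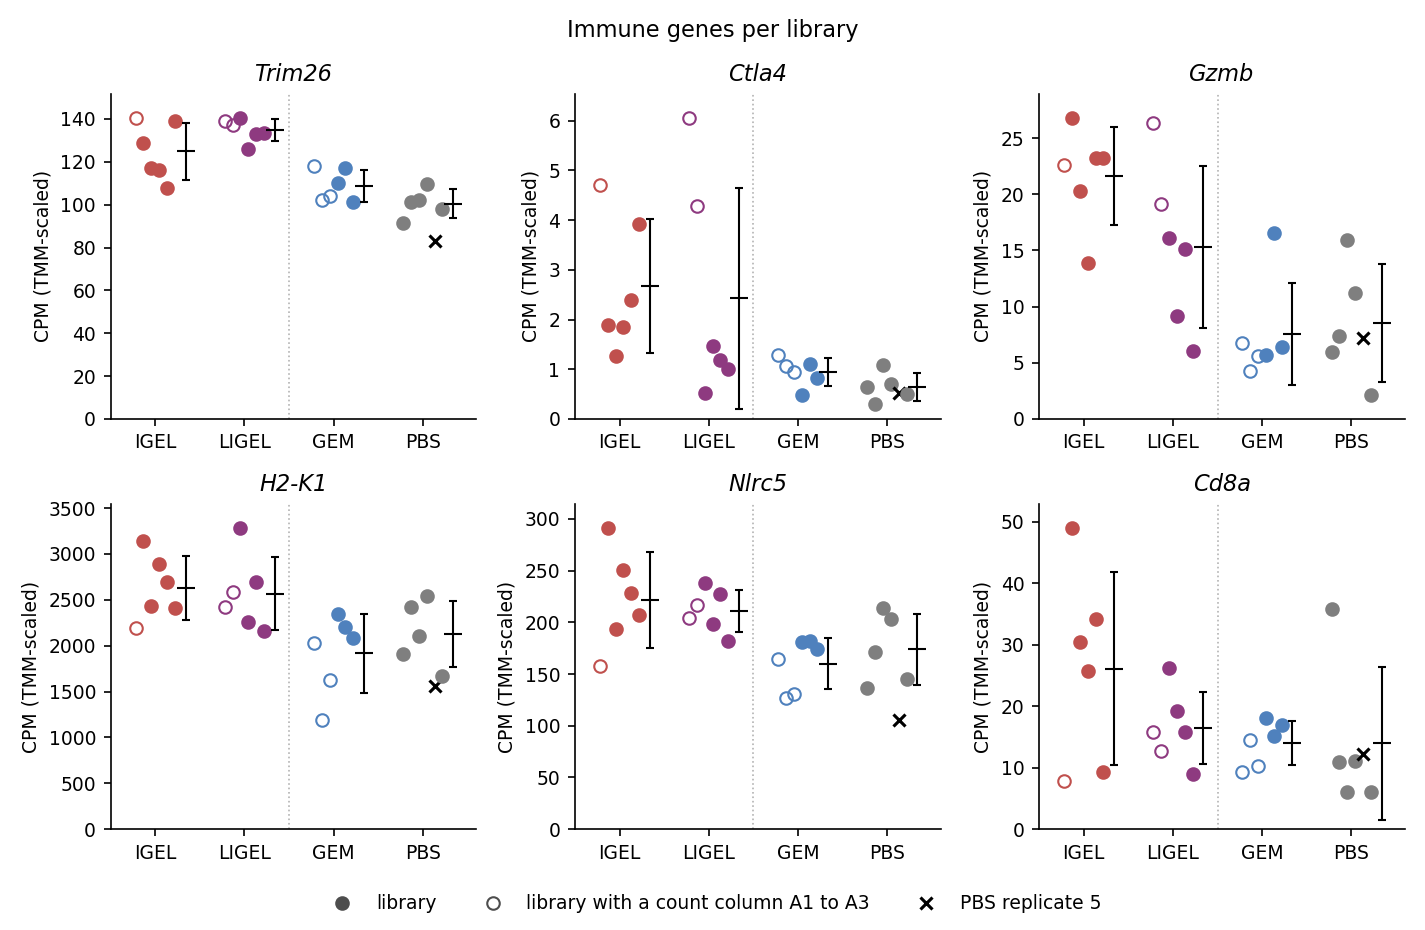
CPM (y axis, linear, TMM-scaled) of 6 immune genes in each library, by group on the x axis, with the mean and SD beside each group and PBS replicate 5 left out of both. Trim26 shows the least overlap, with 9 of 12 IGEL and LIGEL libraries above all 11 others, whereas Cd8a overlaps widely and was not called.

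Interferon gamma response genes had a median of 0.42, with 24 of 24 above 0, and 1 call. That gene was Batf2, an interferon-induced AP-1 family factor, with 5.02, 12.6 and 21.6 CPM in IGEL and LIGEL and 5.22, 7.92 and 10.97 CPM in GEM and PBS. Batf2 rose by 0.76 ± 0.17 (adjusted p = 0.0178), and 9 of the 12 IGEL and LIGEL libraries were above all 11 others. The GAS motif was in 8 of 18 promoters of 15 matched members (44.4%), against 6.94% of all promoters searched. Batf2 had no promoter entry, so none of the 15 was called. The share describes the makeup of the list and is not a result of the comparison. Within the A1 to A3 libraries the list median was 0.02, and without them it was 0.58. The type I interferon list had 0 calls of 25 and a median of 0.22, which was -0.37 within the A1 to A3 libraries and 0.45 without them. Plasma cell and B cell genes had 0 calls of 11 and a median of 0.98. Ighg1, an antibody heavy chain, spanned 0.0797 to 26.9 CPM in IGEL and LIGEL and 0 to 0.745 CPM in GEM and PBS (3.29 ± 1.05, adjusted p = 0.0971). MHC class II, macrophage, dendritic cell, neutrophil and chemokine lists had 0 calls each, with medians of 0.58, -0.16, 0.05, -0.44 and 0.02.

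Ductal and tumour epithelial genes had wide fold changes and wide spread. Of 15 tested 3 were called lower, with a median of -1.63. Krt7, a ductal keratin, had 0.710, 3.81 and 10.8 CPM in IGEL and LIGEL and 3.31, 12.7 and 67.1 CPM in GEM and PBS. All 12 IGEL and LIGEL libraries were below the median of the 11 others, and the log2 fold change was -2.18 ± 0.49 (adjusted p = 0.0235). Cldn4, a tight junction claudin, had 0.9998, 6.34 and 26.1 CPM in IGEL and LIGEL and 5.19, 31.4 and 187 CPM in GEM and PBS, a change of -2.65 ± 0.61 (adjusted p = 0.0267). Epcam, an epithelial adhesion molecule, fell by 1.797 ± 0.48 (adjusted p = 0.0499). Without PBS replicate 1, in which all 3 were highest, none of the 3 was called, with adjusted p of 0.0763 for Krt7, 0.0851 for Cldn4 and 0.153 for Epcam. The list also had 0 calls without LIGEL replicate 1 or 2 or without the A1 to A3 libraries, and 8 without GEM replicate 5. Krt7 was called in 20, Cldn4 in 19 and Epcam in 5 of the 23 fits with 1 library left out.

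Krt8, Krt18 and Krt19, other keratins of simple epithelia picked after values were seen, were not called. Krt8 had 288, 557 and 756 CPM in IGEL and LIGEL and 412, 505 and 789 CPM in GEM and PBS (-0.06 ± 0.13, adjusted p = 0.855). Krt18 stood at -0.12 ± 0.15 (adjusted p = 0.688) and Krt19 at -0.11 ± 0.23 (adjusted p = 0.844). Acinar genes pointed the same way as Krt7: all 26 had a fold change below 0, with 0 calls, a median of -1.36 and adjusted p between 0.322 and 0.663. Cpa1, a pancreatic carboxypeptidase, had 1.68, 382 and 7139 CPM in IGEL and LIGEL and 1.25, 678 and 13245 CPM in GEM and PBS. Their median was -4.50 within the A1 to A3 libraries and -0.57 without them, where the median of the ductal list was -2.93 and -0.99. With the acinar level as a covariate the ductal list had 0 calls and a median of -0.81. The part of acinar tissue in the epithelial differences was not tested.

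**Figure D4:**
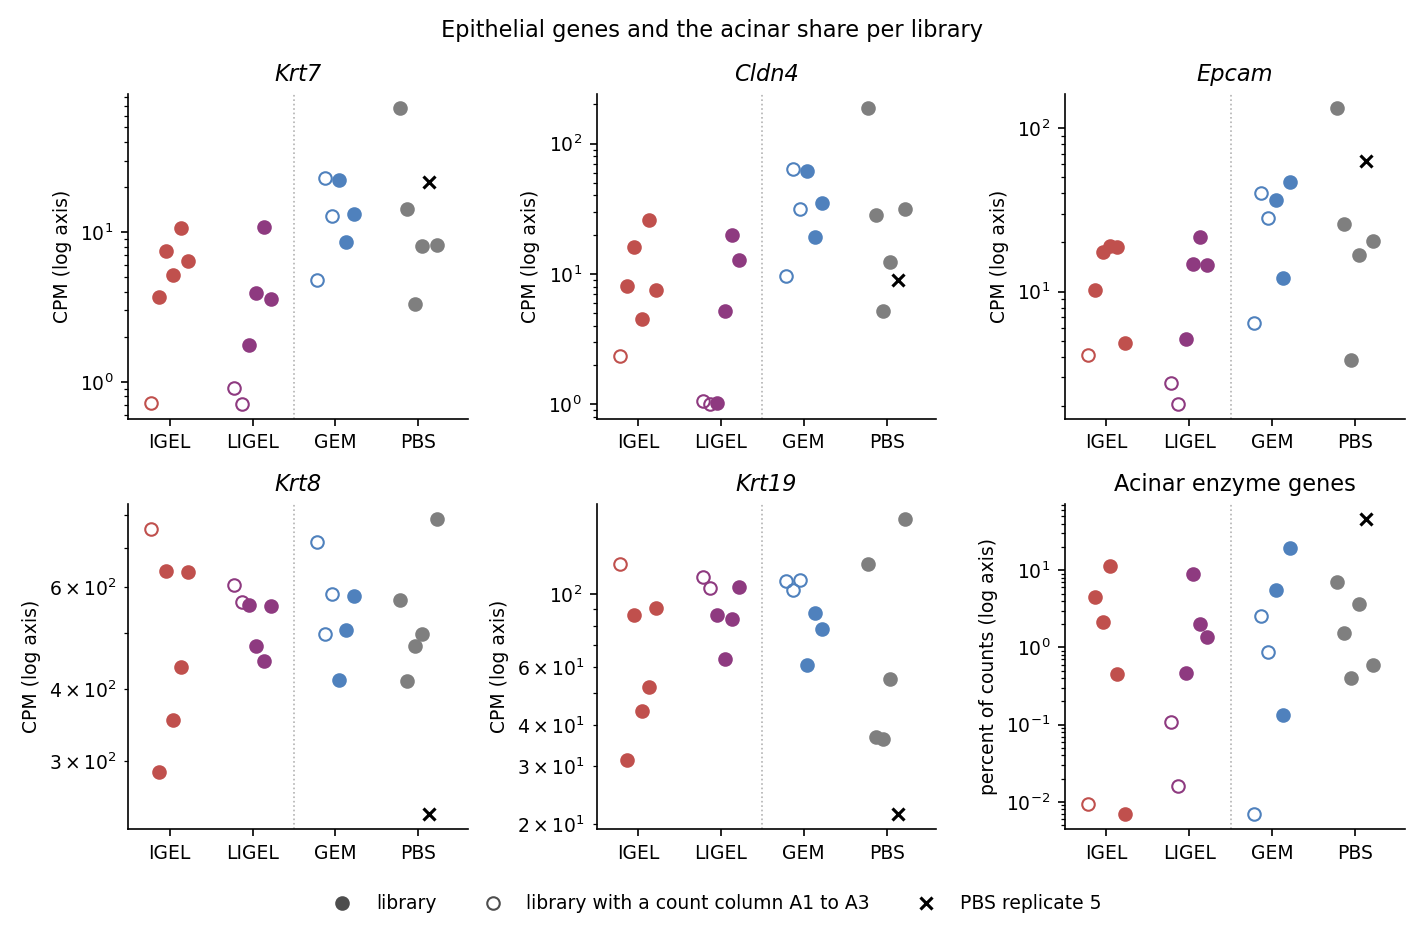
CPM of 5 epithelial genes and the share of counts from 26 acinar genes in percent (y axes, logarithmic) in each library, by group on the x axis. The lowest values of Krt7, Cldn4 and Epcam lie in IGEL and LIGEL libraries, most of all in those with A1 to A3 columns, where the acinar share is also low. Of 12 IGEL and LIGEL libraries, 4, 6 and 2 lie below all 11 GEM and PBS libraries other than PBS replicate 5. The ranges of these genes overlap between the pools, as do those of Krt8 and Krt19.

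Called genes outside the lists with large changes were picked after their values were seen. Cldn6, an embryonic claudin, ranged from 0 to 3.67 CPM (median 1.62) in IGEL and LIGEL and from 1.21 to 57.8 CPM (median 7.81) in GEM and PBS, and its log2 fold change was -2.90 ± 0.58 (adjusted p = 0.00963). Macc1, a regulator of the MET receptor gene, stood at 0.0850, 0.478 and 0.956 CPM in IGEL and LIGEL and 0.0581, 1.49 and 9.84 CPM in GEM and PBS (-2.32 ± 0.45, adjusted p = 0.00766). Both were called in 23 of 23 fits with 1 library left out, but not with the A1 to A3 libraries removed (adjusted p = 0.0768 for Cldn6 and 0.0520 for Macc1). Ephx1, an epoxide hydrolase, fell by 1.92 ± 0.42 (adjusted p = 0.0189) and Arhgef38, a guanine nucleotide exchange factor, by 2.16 ± 0.49 (adjusted p = 0.0235). The tight junction protein gene Cgn fell by 2.48 ± 0.65 (adjusted p = 0.0475) and was called in 7 of the 23 left-out fits. Without PBS replicate 1, where its level was highest, adjusted p was 0.156.

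Other called genes outside the lists included enzymes, adaptors and receptors. Abhd6, a lipase that breaks down monoacylglycerols, had 2.78, 3.87 and 5.29 CPM in IGEL and LIGEL and 3.95, 5.78 and 12.04 CPM in GEM and PBS (-0.72 ± 0.15, adjusted p = 0.0125). Bag1, a co-chaperone of HSP70, had 74.8, 82.9 and 90.6 CPM in IGEL and LIGEL and 82.5, 96.7 and 109 CPM in GEM and PBS (-0.22 ± 0.04, adjusted p = 0.0118). Every IGEL and LIGEL library was below the median of the 11 others for both. Gfer, a mitochondrial sulfhydryl oxidase, fell by 0.28 ± 0.06, Nsmce4a, a subunit of the SMC5/6 complex, by 0.28 ± 0.06, and the receptor kinase Tyro3 by 0.46 ± 0.11. Among genes that rose, Itga2b, the platelet integrin chain, changed by 0.51 ± 0.10, Rasa4, a RAS inhibitor, by 0.42 ± 0.09, and Cybc1, a chaperone of the phagocyte oxidase, by 0.25 ± 0.05. Adjusted p-values of these 6 genes were between 0.00818 and 0.0257. Grb10, an adaptor that dampens insulin signalling, had 63.5, 85.6 and 120 CPM in IGEL and LIGEL and 95.0, 132 and 287 CPM in GEM and PBS (-0.65 ± 0.17, adjusted p = 0.0444), and 8 of the 12 IGEL and LIGEL libraries were below all 11 others. Grb10 was called in 9 of the 23 left-out fits. Ifi205, an interferon-inducible gene with close copies nearby, rose by 0.53 ± 0.12 (adjusted p = 0.0225). Gpr132, a G protein-coupled receptor of lymphocytes and macrophages, rose by 0.49 ± 0.10 (adjusted p = 0.0125), and Prdm1, the factor Blimp-1 of plasma cells and effector T cells, by 0.50 ± 0.12 (adjusted p = 0.0368, called in 11 of 23 left-out fits). Of these genes, Nsmce4a and Prdm1 were still called with the A1 to A3 libraries removed.

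Stromal genes, which the series title puts forward, gave 0 calls. The 16 collagen chains had a median of -0.50, with 14 below 0, and a mean log2 CPM of 8.39 ± 0.60 in IGEL, 8.21 ± 0.40 in LIGEL, 8.68 ± 0.33 in GEM (SD, n = 6 each) and 8.71 ± 0.78 in PBS without replicate 5 (SD, n = 5). Col1a1, the main chain of fibrillar collagen, had 1530.4, 4544 and 8492 CPM in IGEL and LIGEL and 2779, 5853 and 16655 CPM in GEM and PBS (-0.60 ± 0.25, adjusted p = 0.197). Fibroblast, other matrix, TGF-beta and endothelial lists had medians of -0.37, -0.40, 0.04 and -0.21. The renin-angiotensin list had 0 calls of 8 and a median of -0.13. Agtr1a, which encodes the receptor that losartan blocks, had 0.158, 0.571 and 1.32 CPM in IGEL and LIGEL and 0.166, 1.27 and 5.35 CPM in GEM and PBS, with 9.28 CPM in PBS replicate 5 (-1.23 ± 0.46, adjusted p = 0.153).

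Lists for ribosome biogenesis, oxidative phosphorylation, cholesterol synthesis, hypoxia and the unfolded protein response had 0 calls, with medians of -0.13, -0.09, 0.17, 0.19 and -0.10. Wnt targets had 2 lower calls of 9 and a median of -0.38. These were Tcf7, a Wnt transcription factor that T cells also express (-0.38 ± 0.10, adjusted p = 0.0434), and Znrf3, a Wnt feedback inhibitor (-0.32 ± 0.08, adjusted p = 0.0473). With 1 library left out the list had 0 to 2 calls, with Tcf7 called in 6 and Znrf3 in 4 of the 23 fits. With the A1 to A3 libraries removed, or with no composition factor, it had 0.

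**Figure D5:**
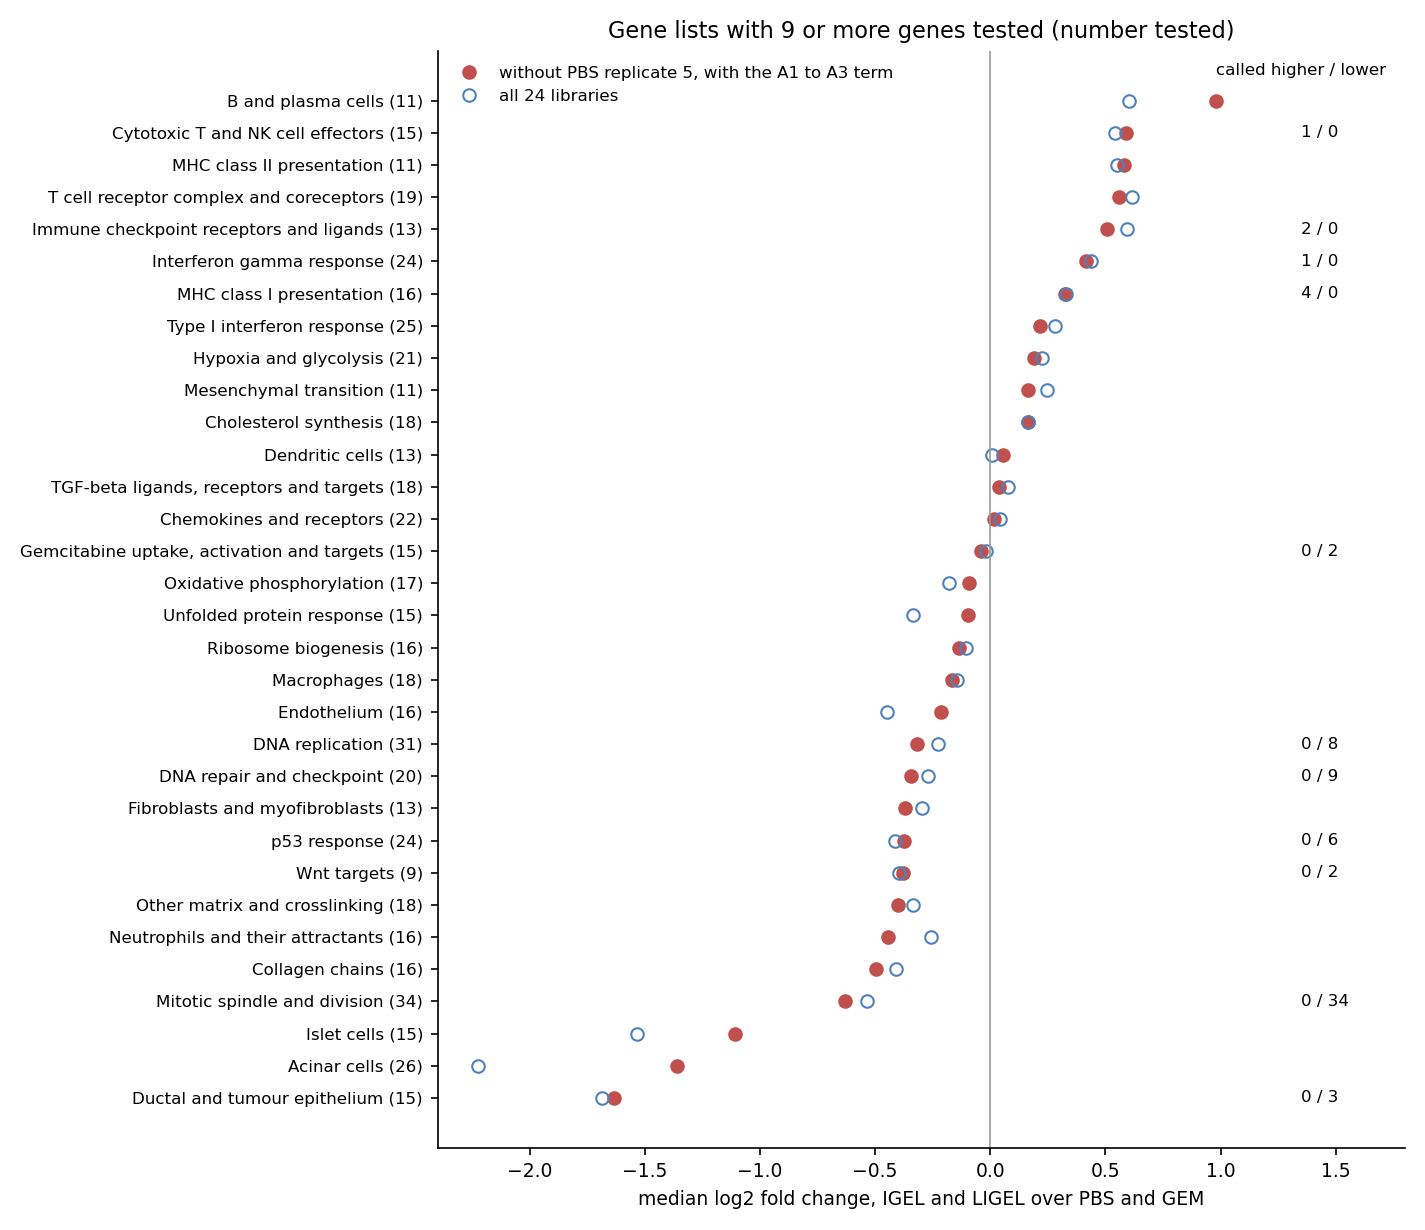
Median log2 fold change (x axis) of each gene list with 9 or more genes tested, IGEL and LIGEL over GEM and PBS, without PBS replicate 5 and with the A1 to A3 term (filled) and over all 24 libraries (open), with the number of members called higher and lower at the right. Division genes have 34 of 34 called with a median of -0.63, whereas the acinar, islet and ductal lists have wider medians with 0, 0 and 3 calls.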

How the data were processed

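Bulk RNA of mouse tumours was sequenced in 24 libraries, and the authors deposited 1 table of raw counts of reads per gene, with no normalization, for 54532 genes. Per the submitters' processing notes, HISAT2, featureCounts of Subread and the build mm10 were used. Versions, annotation release and strandedness are not given in the sources used here, so reads of overlapping or antisense genes cannot be told apart. Columns were matched to samples by the column name in the labels.

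Differences were tested in edgeR 4.0.16 (R 4.3.3). The filter filterByExpr over the 2 pools (min.count 10, min.total.count 15) removed 0.110% of counts, libraries were scaled by TMM, and each gene had a robust quasi-likelihood F test. A call needed an adjusted p (Benjamini-Hochberg, over all genes tested) under 0.05. The SE is the absolute log2 fold change over the square root of F. CPM uses TMM-scaled totals, and log2 CPM adds a prior count of 2. The analysis over all 24 libraries was the main one. The others, DESeq2 1.42.0 and limma 3.58.1 were alternatives, and the code was tested on simulated data.

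The comparison, its checks and the 40 gene lists (654 genes, 653 in the table) were chosen with earlier results of these data known. Genes are named where they have the smallest p in the comparison (10 in each direction), are called members of a list, or belong to 12 fixed genes. The members of each list with the smallest p over all 24 libraries could also be named, called or not. Krt8, Krt18 and Krt19 were added as tissue checks after values were seen. Because no gene was called over all 24 libraries, genes with the largest changes in the 23-library fit with the column term were added after its values were seen. These were up to 15 called genes per direction, with a mean of at least 1 CPM and few libraries without counts in the higher pool. At least 9 of the 12 IGEL and LIGEL libraries had to lie beyond the GEM and PBS median. For these added genes, the number of libraries beyond that median is therefore partly fixed by the choice. Only some of the genes that these rules name are reported here. Promoters were matched by symbol for 12020 genes tested.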

Additional observations from a re-analysis of the deposited data

Results flagged for a closer look

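Values of single libraries were examined in the 72 groups of 6 behind the group means of the report, the acinar share and the total counts. In 11 of them the highest or lowest library stood apart, by a gap to the next that passed Dixon's 95% critical value for 6 samples. Chance alone flags about 1 in 20 such groups.

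PBS replicate 5 stood apart in 3 measures. Its acinar genes took 46.8% of counts, where the next PBS library had 7.09%. Its total was 27066563 counts, with 34010727 in the next. Its division genes averaged 3.85 log2 CPM, with 6.49 in the next lowest PBS library. The acinar share also stood apart in LIGEL replicate 4, at 8.92%, and in GEM replicate 6, at 19.6%.

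Krt7 was at 10.8 CPM in LIGEL replicate 5 and at 67.1 CPM in PBS replicate 1, the highest of their groups. Gzmb was at 16.6 CPM in GEM replicate 5, where the other GEM libraries reached 6.72 CPM. Cd8a was at 35.7 CPM in PBS replicate 1, where the next had 12.2 CPM. T cell receptor genes averaged 1.45 log2 CPM in LIGEL replicate 6, the lowest of that group, and collagen chains averaged 7.24 log2 CPM in IGEL replicate 1, the lowest of that group.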

How the results depend on the processing

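The count of called genes depended on the settings. Over all 24 libraries (0 called), DESeq2 called 470, the acinar covariate 4, both steps together 374, and PBS replicate 5 and the A1 to A3 libraries left out together 79. The RLE factors, no composition factor, no filter, 1 mean per group, voom weights and the fold test against 1.2 called 0. Without 1 library the count was 0 to 1. Without PBS replicate 5 (0 called), the term gave 374 and leaving out the A1 to A3 libraries 79, and 1 more library left out gave 0 to 290. With the term over 24 libraries (0 called), 1 library left out gave 0 to 844, with 705 without PBS replicate 3 and 844 without GEM replicate 5.

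From the 374 called with both steps, DESeq2 gave 1086, no composition factor 171, no filter 200, the fold test against 1.2 0, leaving out the A1 to A3 libraries 79, and those libraries alone 0. Dropping the term, restoring PBS replicate 5 or both gave 0. One library left out gave 170 to 838. Voom weights called 358, of which 265 were shared, and the acinar covariate 307, of which 266 were shared. The cause of these shifts was not tested. Same-numbered libraries of different groups were compared by the correlation of their deviations from the group means. Of 36 such pairs 14 were over 0.1, with a median of -0.08 and a range of -0.63 to 0.75. For 180 pairs with different numbers the median was 0.03 and the range -0.74 to 0.75. With spreads this wide, the check cannot show whether the numbers pair samples. The replicate block gave 0 over all 24 libraries and 177 with both steps, 173 of them shared.

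Directions reversed for 3 genes that were not called. The log2 fold change of Krt8 was 0.0074 over all 24 libraries, 0.0014 with the term, 0.12 within the A1 to A3 libraries and -0.096 to 0.035 with 1 library left out. That of Krt19 was 0.086 with voom weights, 0.10 within the A1 to A3 libraries and -0.17 to 0.087 with 1 library left out. Within the A1 to A3 libraries Cdkn1a was at 0.29. Depth limits the genes of low level, such as Ctla4 and Agtr1a.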
